A study of Arabidopsis thaliana with 12 samples.

Results

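The data concern 10 transcription factor genes of Arabidopsis that belong to groups IIa, IIc and IId of the WRKY family. They were chosen by locus: WRKY18 (AT4G31800), WRKY40 (AT1G80840) and WRKY60 (AT2G25000) of group IIa, WRKY75 (AT5G13080), WRKY28 (AT4G18170) and WRKY48 (AT5G49520) of group IIc, and WRKY7 (AT4G24240), WRKY11 (AT4G31550), WRKY15 (AT2G23320) and WRKY17 (AT2G24570) of group IId. The count table held 32678 genes, of which 67 carry a WRKY symbol, so 57 WRKY genes lay outside the set. Leaf RNA of plants aged 4 weeks, grown in short days, was sequenced in 12 libraries, each from 6 leaf discs, in 6 groups of 2. The flg22 groups were camta3-D and Col-0 wild type 1 h after infiltration with 100 nM flg22, a flagellin peptide that the cell surface receptor FLS2 recognizes. The AvrRpm1 groups were camta3-D and wild type 4 h after leaves received Pseudomonas syringae pv. tomato (Pst) DC3000 with the effector AvrRpm1, at an OD600 of 0.001. The AvrRps4 groups were camta3-D and wild type 4 h after the same dose of Pst DC3000 carrying AvrRps4. The camta3-D line (sr1-4d) carries a dominant mutant allele of CAMTA3, a calmodulin-binding transcription activator. No mock-treated library was analysed here, so no value below is an induction over untreated leaves. The design asks how far the dominant allele alters transcript levels after a surface elicitor and after effectors that intracellular receptors recognize.

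WRKY factors bind the W box, a short element with a TTGAC core found upstream of many defence genes, and several WRKY genes carry W boxes themselves. Group IIa proteins form homo- and heterodimers through a leucine zipper, and WRKY18 and WRKY40 act together as negative regulators of immunity to several biotrophic pathogens. Group IId proteins bind calmodulin through a conserved motif, and the calcium-dependent kinases CPK4, CPK5, CPK6 and CPK11 phosphorylate the group IIc factors WRKY28 and WRKY48. CAMTA proteins bind elements with a CGCG or CGTG core.

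The 300 bases before the annotated start of 5 genes are shown because the results below turn on them: WRKY60, WRKY18 and, from few counts, WRKY75 were called between genotypes, and WRKY40 and WRKY15 had similar profiles across libraries. They are from the RefSeq copy of TAIR10.1, 5′ to 3′ on the strand of the gene, at chr2:10629362-10629661 (plus strand) for WRKY60, chr4:15382477-15382776 (plus) for WRKY18, chr5:4151202-4151501 (minus) for WRKY75, chr1:30383261-30383560 (plus) for WRKY40 and chr2:9924586-9924885 (plus) for WRKY15. Capitals mark CGCG, CGTG and TTGAC on either strand, so that CACG and GTCAA are matches to the other strand.
WRKY60: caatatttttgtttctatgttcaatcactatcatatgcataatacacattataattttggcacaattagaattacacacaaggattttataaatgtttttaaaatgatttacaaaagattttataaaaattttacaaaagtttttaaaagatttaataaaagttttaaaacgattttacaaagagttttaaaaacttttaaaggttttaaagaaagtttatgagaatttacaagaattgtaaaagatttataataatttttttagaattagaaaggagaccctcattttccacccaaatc
WRKY18: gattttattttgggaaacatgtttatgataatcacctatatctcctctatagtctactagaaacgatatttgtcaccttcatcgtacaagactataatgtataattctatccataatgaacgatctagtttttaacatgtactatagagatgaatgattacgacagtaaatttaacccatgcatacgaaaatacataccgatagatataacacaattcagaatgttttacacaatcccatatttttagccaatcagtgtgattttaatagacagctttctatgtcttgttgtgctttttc
WRKY75: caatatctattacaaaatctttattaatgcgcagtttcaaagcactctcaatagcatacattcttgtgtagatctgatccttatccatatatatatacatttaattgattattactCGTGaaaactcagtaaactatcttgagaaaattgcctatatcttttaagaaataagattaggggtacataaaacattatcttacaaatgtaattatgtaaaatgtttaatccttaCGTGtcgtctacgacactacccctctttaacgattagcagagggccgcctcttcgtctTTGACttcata
WRKY40: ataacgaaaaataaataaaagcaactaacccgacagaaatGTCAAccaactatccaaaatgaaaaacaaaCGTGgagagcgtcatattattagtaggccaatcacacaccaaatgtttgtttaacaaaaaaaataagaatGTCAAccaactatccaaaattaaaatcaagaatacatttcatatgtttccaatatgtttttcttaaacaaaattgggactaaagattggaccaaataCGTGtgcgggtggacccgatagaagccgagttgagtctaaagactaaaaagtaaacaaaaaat
WRKY15: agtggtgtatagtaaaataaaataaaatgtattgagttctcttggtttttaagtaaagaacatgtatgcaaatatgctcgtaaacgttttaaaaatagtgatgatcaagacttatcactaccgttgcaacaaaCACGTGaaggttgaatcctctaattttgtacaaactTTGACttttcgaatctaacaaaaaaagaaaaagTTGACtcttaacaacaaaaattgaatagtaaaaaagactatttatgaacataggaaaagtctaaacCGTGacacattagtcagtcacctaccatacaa

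The windows of WRKY60 and WRKY18 held none of these letters, and neither did that of WRKY7, which overlaps the non-coding gene AT4G07250. The WRKY15 window held TTGAC at 131 and 98 bases before the start, each time as TTGACT, and CGTG on both strands of the palindrome CACGTG as well as 32 bases before the start, so its 3 CGTG matches are not separate elements. The WRKY40 window held TTGAC at 260 and 160 bases and CGTG at 230 and 63 bases. In WRKY75, CGTG lay at 184 and 69 bases and TTGACT at 11 bases. Among all 10 genes, 6 held CGTG, against 50.5% of 27443 promoters of the same length, and 7 held TTGAC, against 50.4%. CGCG occurred in 1 gene, WRKY48, against 11.8% of promoters. WRKY11 held TTGAC 3 times, and 5.07% of promoters held it 3 or more times. A match describes the letters and no factor's binding.

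Gene counts per library ranged from 22769687 to 26303024. All 10 genes were among the 19167 that passed the filter on low counts, which needs about 10 counts in 2 libraries. WRKY60 exceeded that minimum in 9 of 12 libraries and WRKY75 in 3, of which 2 were the wild-type flg22 libraries, while the other 8 genes exceeded it in all 12. Levels are given in CPM, counts relative to the library total scaled by the TMM method, and differences as log2 fold changes with their standard error (SE) from edgeR's quasi-likelihood test. The threshold for a call was an adjusted p of 0.05 (Benjamini-Hochberg, over all genes tested). The flg22 and AvrRpm1 libraries came from independent experiments per the study, and for the AvrRps4 libraries nothing says so, so their spread may be technical. Summed CPM of 3 mesophyll markers was 40000 to 64500 and that of 2 markers of dividing cells 1.64 to 4.15, as the leaf label implies. The CAMTA3 transcript had 49.9 to 210 CPM, which does not check a line that differs by a substitution. The exons of WRKY40 overlap those of AT1G80850, and the strand setting of the counting is not given in the sources used here, so the WRKY40 counts are uncertain to that extent.

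**Figure D1:**
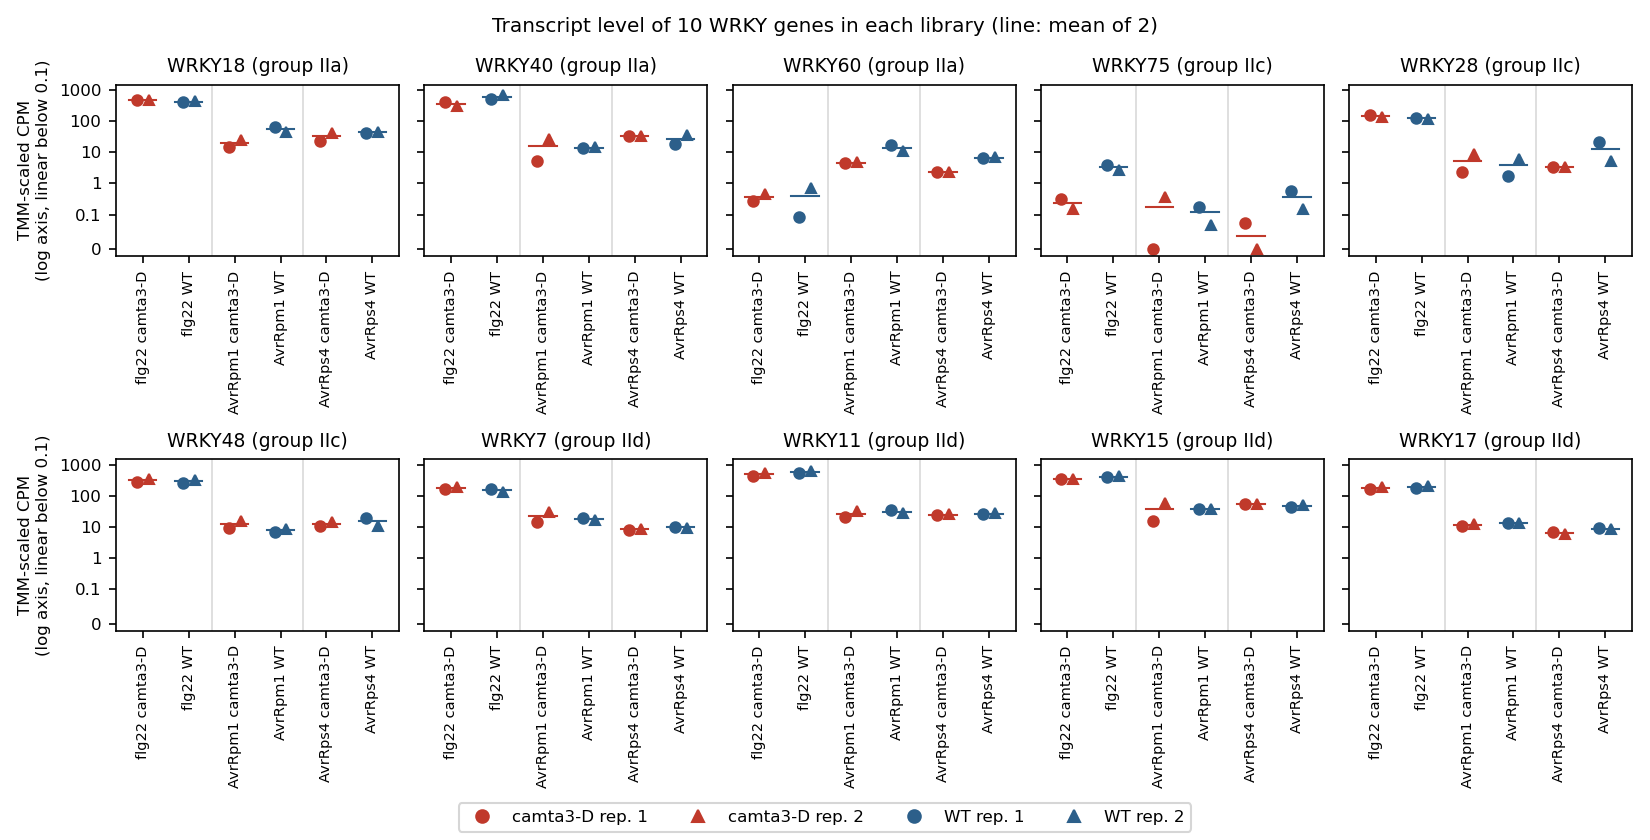
Level of each gene in each of the 12 libraries, in TMM-scaled CPM on a log axis that is linear below 0.1; circles are replicate 1, triangles replicate 2 and lines the mean of 2. Of the 10 genes, 8 lay at 113 to 687 CPM in all 4 flg22 libraries and at 1.76 to 66.5 CPM in all 8 Pst libraries, while WRKY60 was lower after flg22 and WRKY75 was above 1 CPM only in the wild-type flg22 libraries.

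The widest contrast in these genes was that between flg22 at 1 h and both Pst strains at 4 h, in which elicitor and time cannot be told apart. In camta3-D, 8 of the 10 genes were higher after flg22, 1 was lower and 1 was not called, against 32.5% higher and 33.9% lower of all genes tested. In wild type, 9 were higher and 1 lower, against 34.3% and 36.8%. The set was chosen with earlier results of these data known, so its counts beside these shares are a description. The median log2 fold change of the 10 genes was 4.07 in camta3-D and 4.00 in wild type, beside -0.03 and -0.05 over all genes. Among the 39 other WRKY genes tested, 21 were higher and 5 lower in camta3-D, and 24 were higher and 7 lower in wild type, with medians of 0.98 and 1.10.

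In group IIa, WRKY18 had 471 and 482 CPM after flg22 in camta3-D, against 14.9 and 25.4 CPM after AvrRpm1 and 23.8 and 40.4 CPM after AvrRps4. In wild type it had 397 and 429 CPM after flg22, against 66.5 and 43.7 CPM after AvrRpm1 and 41.1 and 46.4 CPM after AvrRps4. The flg22 libraries lay far above all Pst libraries in both genotypes, by 4.23 (SE 0.25, adjusted p = 3.7e-07, edgeR) in camta3-D and by 3.07 (SE 0.24, adjusted p = 1.91e-06, edgeR) in wild type on the log2 scale. WRKY40, whose protein pairs with WRKY18, had 402 and 300 CPM after flg22 in camta3-D and 529 and 687 CPM in wild type. Its Pst libraries lay between 5.32 and 35.3 CPM, and the log2 fold changes were 3.92 (SE 0.46) in camta3-D and 4.95 (SE 0.47) in wild type.

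WRKY60, the remaining group IIa gene and a reported target of WRKY18 and WRKY40 in abscisic acid signalling, moved the other way. It had 5 and 9 counts (0.266 and 0.466 CPM) after flg22 in camta3-D, against 4.51 and 4.82 CPM after AvrRpm1 and 2.33 and 2.31 CPM after AvrRps4. In wild type it had 2 and 15 counts (0.0922 and 0.725 CPM) after flg22, against 16.7 and 11.3 CPM after AvrRpm1 and 6.61 and 6.83 CPM after AvrRps4. Every flg22 library was below every Pst library, and WRKY60 was 8.85-fold lower after flg22 in camta3-D (log2 fold change -3.15, SE 0.48, adjusted p = 0.00024, edgeR) and 23.8-fold lower in wild type (-4.57, SE 0.45, adjusted p = 8.35e-06, edgeR). Only 1 of the 4 flg22 libraries exceeded the minimum count for this gene, and the wild-type value was -3.70 without flg22 replicate 1 and -6.61 without flg22 replicate 2, so its size is uncertain.

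In group IIc, WRKY28, an activator of the salicylic acid synthesis gene ICS1, had 156 and 140 CPM after flg22 in camta3-D and 130 and 113 CPM in wild type, and no more than 20.8 CPM in any Pst library. It was 35.0-fold higher after flg22 in camta3-D (log2 fold change 5.13, SE 0.58) and 17.1-fold higher in wild type (4.10, SE 0.55). WRKY48, a negative regulator of resistance to Pst, had 271 and 359 CPM after flg22 in camta3-D and 263 and 327 CPM in wild type, and 7.03 to 19.4 CPM in the Pst libraries. Its log2 fold changes were 4.65 (SE 0.27) in camta3-D and 4.76 (SE 0.27) in wild type.

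WRKY75, which acts in phosphate starvation and leaf senescence, had the lowest mean log2 CPM of the set over the 12 libraries, although WRKY60 was lower in the wild-type flg22 libraries. It had 6 and 3 counts after flg22 in camta3-D, 0 and 9 after AvrRpm1, and 2 and 0 after AvrRps4, and the AvrRpm1 libraries spanned the range of the other camta3-D libraries. In wild type it had 85 and 54 counts (3.92 and 2.61 CPM) after flg22, against 5 and 2 counts after AvrRpm1 and 16 and 4 after AvrRps4. The wild-type difference was called (log2 fold change 3.91, SE 0.66, adjusted p = 0.000401, edgeR), and that in camta3-D was 1.45 (SE 1.20, adjusted p = 0.307, edgeR). WRKY75 passed the count filter through the wild-type flg22 libraries, so its call has to be read with these counts.

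All 4 group IId genes were higher after flg22 in both genotypes. WRKY11 and WRKY17, related genes that limit basal resistance to Pst, were 19.0-fold and 21.1-fold higher in camta3-D and 20.3-fold and 17.7-fold higher in wild type. WRKY11 had 425 and 552 CPM after flg22 in camta3-D and 538 and 638 CPM in wild type, and 20.7 to 34.6 CPM in the Pst libraries. WRKY17 had 167 and 190 CPM after flg22 in camta3-D and 172 and 209 CPM in wild type, and 5.87 to 13.3 CPM in the Pst libraries. WRKY17 had the smallest SE of the set, with log2 fold changes of 4.40 (SE 0.11) in camta3-D and 4.14 (SE 0.11) in wild type.

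WRKY7, which encodes a calmodulin-binding repressor, had 165 and 186 CPM after flg22 in camta3-D and 171 and 128 CPM in wild type, and 8.13 to 30.2 CPM in the Pst libraries. WRKY15, a gene linked to cell expansion and stress tolerance, had 358 and 352 CPM after flg22 in camta3-D and 399 and 434 CPM in wild type, and 15.9 to 58.4 CPM in the Pst libraries. Its difference was the smallest of the called increases in camta3-D, 7.92-fold (log2 fold change 2.99, SE 0.35), and was 9.79-fold in wild type (3.29, SE 0.35). For the 8 genes called higher in both genotypes and for WRKY60, the call held with each library left out in turn. Without AvrRpm1 camta3-D replicate 2, the camta3-D values were 4.71 for WRKY40, 3.60 for WRKY15 and 5.74 for WRKY28, and WRKY75 was called (4.01, adjusted p = 0.0352, edgeR). Without AvrRps4 wild-type replicate 1, the wild-type values were 4.77 for WRKY28 and 4.55 for WRKY75.

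**Figure D2:**
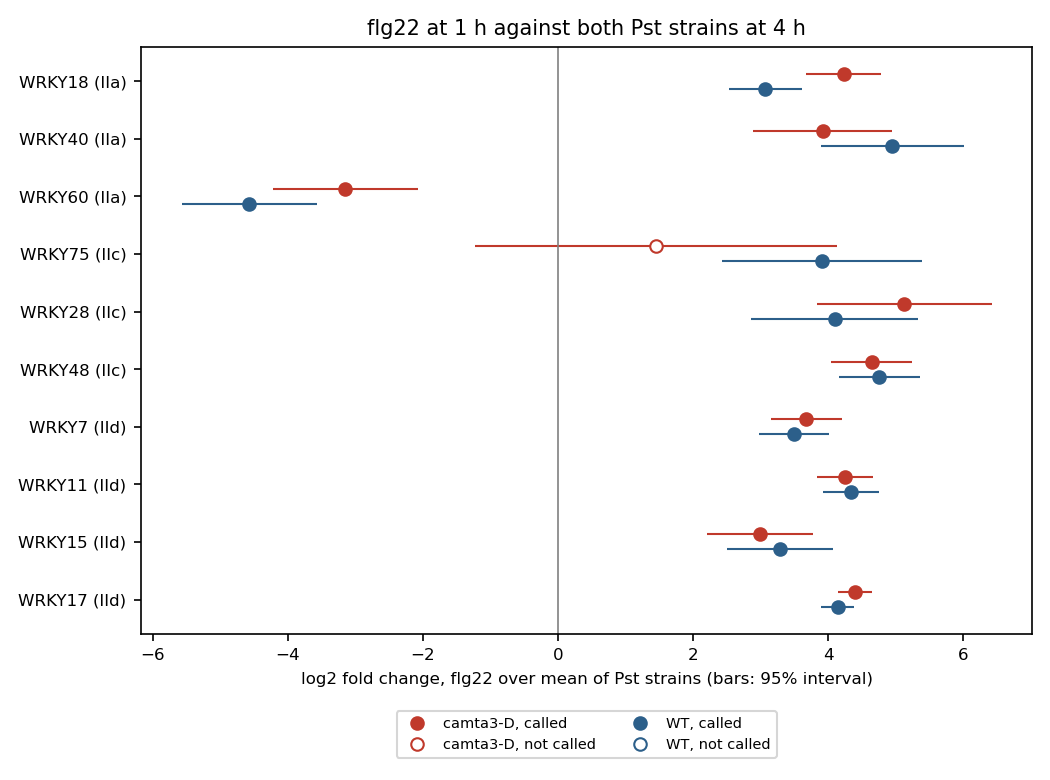
Log2 fold change of flg22 at 1 h over the mean of both Pst strains at 4 h, with 95% intervals, in camta3-D (red, upper) and wild type (blue, lower); filled points passed an adjusted p of 0.05. WRKY60 lies left of 0 in both genotypes, at -3.15 and -4.57, and WRKY75 in camta3-D is the only open point.

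Per kilobase of exon, the order of levels differed between treatments. After flg22, WRKY15 (276 ± 3.10 CPM per kb, SD, n = 2), WRKY11 (269 ± 49.2), WRKY40 (265 ± 54.3) and WRKY18 (235 ± 4.07) had the highest levels in camta3-D, and WRKY11 and WRKY40 overlapped both of the others. In wild type WRKY40 (459 ± 84.1 CPM per kb, SD, n = 2) stood above WRKY15 (325 ± 19.5) and WRKY11 (323 ± 38.6). After Pst, WRKY15 had the highest mean in each of the 4 groups, from 28.9 to 42.2 CPM per kb, although its AvrRpm1 camta3-D libraries spanned 12.4 to 45.5 CPM per kb. After AvrRpm1 in wild type it overlapped WRKY18, at 30.1 and 28.8 against 32.8 and 21.6 CPM per kb.

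The genotype comparison after flg22 called 1 of the 10 genes. This was WRKY75, with the 6 and 3 counts in camta3-D against 85 and 54 in wild type given above (fitted log2 fold change -3.76, SE 0.88, adjusted p = 0.0276, edgeR). It passed the count filter through the wild-type libraries in which it was high, so the call describes these counts and supports no more, and with no filter the adjusted p was 0.0168. The call was lost with each of the 4 flg22 libraries left out in turn (adjusted p 0.0867 to 0.136, with fitted values of -4.38 to -3.36, the furthest without camta3-D replicate 1). No gene of the set was higher by edgeR, by DESeq2 or at an unadjusted p under 0.05 (edgeR), and each gave 1 lower. By edgeR, 1 of 10 lower stands beside 5.21% higher and 5.59% lower of all genes, so the count is near the background. DESeq2 called 13.7% of all genes in either direction, and 28.2% had an unadjusted p under 0.05.

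WRKY40 had lower levels in both camta3-D libraries after flg22 than in either wild-type library, 402 and 300 against 529 and 687 CPM, but the difference did not pass the test (log2 fold change -0.79, SE 0.53, adjusted p = 0.367, edgeR). WRKY18 and WRKY28 lay above wild type in both camta3-D libraries and WRKY15 below it, with log2 fold changes of 0.21, 0.28 and -0.23. Apart from WRKY75 and WRKY40, the log2 fold changes lay between -0.27 for WRKY11 and 0.28 for WRKY28. Of these, the interval was narrowest for WRKY17, from -0.37 to 0.18.

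In bulk leaf RNA, fewer cells of a type and less RNA per cell cannot be told apart. The summed mesophyll markers were higher in camta3-D than in wild type in each treatment, at 62900 to 64500 against 50100 to 54800 CPM after flg22, 50700 to 50900 against 41800 to 42300 CPM after AvrRpm1, and 60300 to 61300 against 40000 to 46900 CPM after AvrRps4. Summed markers of guard cells were lower in camta3-D, at 55.2 to 59.7 against 67.2 to 74.6 CPM after flg22, 47.2 to 60.3 against 60.7 to 71.3 CPM after AvrRpm1, and 48.4 to 49.1 against 51.3 to 58.3 CPM after AvrRps4. Not every guard cell marker followed the sum. The mean of GC1 was level after flg22 (40.5 against 40.4 CPM) and higher in camta3-D after AvrRps4 (15.7 against 11.7 CPM). That of MYB60 was higher in camta3-D after AvrRpm1 (9.92 against 9.22 CPM). Those of phloem were lower after AvrRpm1 (163 to 169 against 202 to 235 CPM) and AvrRps4 (136 to 173 against 193 to 248 CPM) and higher after flg22 (242 to 267 against 213 to 223 CPM). Those of dividing cells were higher in camta3-D in each treatment, at 2.90 to 4.15 CPM over its 6 libraries against 1.64 to 3.08 CPM in wild type. Those of epidermis were higher in camta3-D after AvrRpm1 (223 to 244 against 172 to 215 CPM) and AvrRps4 (200 to 215 against 174 to 193 CPM). After flg22 the epidermis sums overlapped (225 to 273 against 249 to 268 CPM). The part of these markers in the genotype differences was not tested.

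After AvrRpm1, 2 of the 10 genes were lower in camta3-D, both of group IIa, and none was higher by edgeR, by DESeq2 or at an unadjusted p under 0.05. Over all genes tested, 1.12% were higher and 3.41% lower by edgeR. DESeq2 called 7.83% of all genes in either direction, and 20.1% had an unadjusted p under 0.05 (edgeR). WRKY18 had 14.9 and 25.4 CPM in camta3-D, against 66.5 and 43.7 CPM in wild type, and was 2.74-fold lower (log2 fold change -1.45, SE 0.30, adjusted p = 0.0275, edgeR). WRKY60 had 4.51 and 4.82 CPM in camta3-D, against 16.7 and 11.3 CPM in wild type, and was 3.01-fold lower (-1.59, SE 0.34, adjusted p = 0.0315, edgeR). In neither gene did the groups overlap, which with 2 libraries a group adds little to the test. The WRKY18 call was lost without camta3-D replicate 1 (adjusted p = 0.131) or wild-type replicate 1 (adjusted p = 0.219), and that of WRKY60 without camta3-D replicate 1 (0.136), camta3-D replicate 2 (0.0967) or wild-type replicate 1 (0.262). With only the 4 AvrRpm1 libraries in the fit, neither was called (adjusted p = 0.123 for WRKY18 and 0.073 for WRKY60).

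The camta3-D libraries after AvrRpm1 differed from each other in most of the other genes. WRKY40 had 5.32 CPM in replicate 1 and 26.6 CPM in replicate 2, with wild type between them at 13.9 and 14.4 CPM. WRKY15 had 15.9 and 58.4 CPM in camta3-D, against 38.7 and 36.9 CPM in wild type. WRKY7 had 14.7 and 30.2 CPM in camta3-D, against 20.1 and 16.4 CPM in wild type. In these 3 genes the camta3-D libraries thus fell on either side of both wild-type libraries.

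The difference between the camta3-D replicates was 2.43 for WRKY75 (0 and 9 counts), 2.30 for WRKY40, 1.87 for WRKY15, 1.87 for WRKY28 and 1.03 for WRKY7 on the log2 scale. The median absolute difference over all genes was 0.17. Replicate 2 was the higher library in all 10 genes, by 0.10 for WRKY60 and 0.18 for WRKY17, which differed least. The share of all genes that were higher in replicate 2 was not computed, so this is not read as a trait of the set. Alignments recorded as not unique came to 7.78% in replicate 2, and to 2.56 to 3.43% in all other libraries, and the part of this in the differences was not tested. The genotype effect on WRKY15 was -0.03 (SE 0.42) with both libraries, 0.63 (adjusted p = 0.0497, edgeR) without replicate 1 and -1.25 (adjusted p = 0.00529, edgeR) without replicate 2, so its sign rests on which library is used. For WRKY40 the same values were 0.17, 0.91 (adjusted p = 0.206) and -1.41 (adjusted p = 0.0812).

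**Figure D3:**
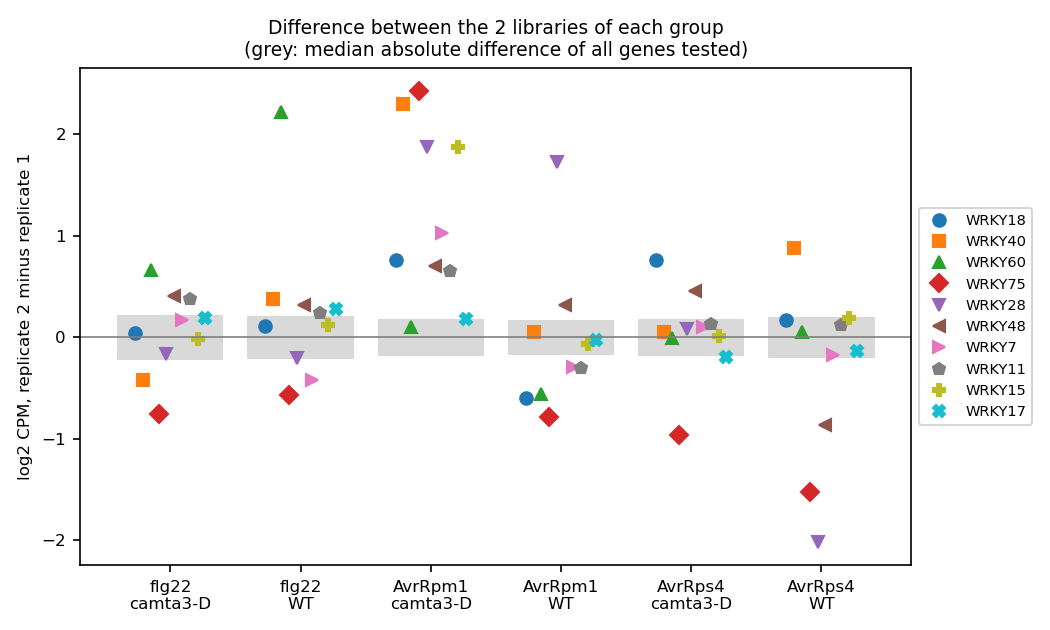
Log2 CPM of replicate 2 minus replicate 1 for each gene in each group, with the median absolute difference of all genes tested as a grey band. All 10 genes lie above 0 in the AvrRpm1 camta3-D group, and WRKY40, WRKY75, WRKY28 and WRKY15 lie furthest from it.

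WRKY48 had 9.55 and 15.6 CPM in camta3-D after AvrRpm1, against 7.03 and 8.77 CPM in wild type, without overlap and without passing the test (log2 fold change 0.67, SE 0.33, adjusted p = 0.291, edgeR). WRKY28 varied between libraries of both genotypes, with 2.27 and 8.50 CPM in camta3-D and 1.76 and 6.01 CPM in wild type. WRKY11 and WRKY17 had log2 fold changes of -0.23 (95% interval -0.71 to 0.25) and -0.22 (-0.52 to 0.08).

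After AvrRps4, WRKY60 was again lower in camta3-D and was the only gene of the set to pass the test. It had 2.33 and 2.31 CPM in camta3-D, against 6.61 and 6.83 CPM in wild type, a 2.89-fold decrease (log2 fold change -1.53, SE 0.36, adjusted p = 0.0446, edgeR). After AvrRpm1 the decrease was 3.01-fold, in other libraries, although both tests share 1 estimate of the spread. The call was lost with each AvrRps4 library left out in turn (adjusted p 0.0932 to 0.201), while the log2 fold change stayed between -1.56 and -1.51. No gene was higher by edgeR, by DESeq2 or at an unadjusted p under 0.05. By edgeR, 1 of 10 lower stands beside 2.49% higher and 2.44% lower of all genes. DESeq2 called 1 lower, beside 9.51% of all genes in either direction. At an unadjusted p under 0.05, 3 were lower, beside 23.6% of all genes in either direction.

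WRKY17 had 6.72 and 5.87 CPM in camta3-D after AvrRps4, against 9.21 and 8.40 CPM in wild type, and did not pass the test (log2 fold change -0.48, SE 0.14, adjusted p = 0.0776, edgeR). WRKY28 had 3.25 and 3.44 CPM in camta3-D, against 20.8 and 5.07 CPM in wild type. Its groups did not overlap, but replicate 2 minus replicate 1 was -2.02 on the log2 scale in wild type, and the genotype difference did not pass the test (-1.95, SE 0.74, adjusted p = 0.15, edgeR). WRKY18, 2.74-fold lower in camta3-D after AvrRpm1, had 23.8 and 40.4 CPM in camta3-D after AvrRps4, against 41.1 and 46.4 CPM in wild type (-0.45, SE 0.29, adjusted p = 0.391, edgeR). WRKY75 had 2 and 0 counts in camta3-D, against 16 and 4 in wild type, too few for a fold change.

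**Figure D4:**
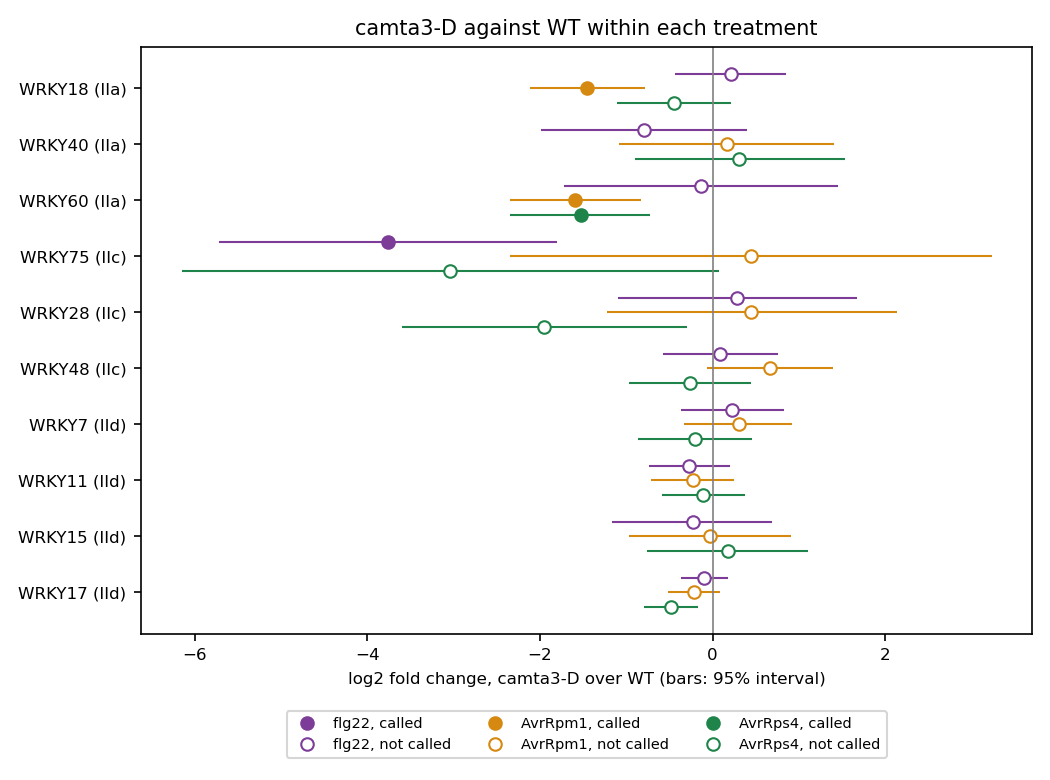
Log2 fold change of camta3-D over wild type with 95% intervals for each gene after flg22 (purple), AvrRpm1 (orange) and AvrRps4 (green); filled points passed an adjusted p of 0.05. The 4 filled points are WRKY18 after AvrRpm1 (-1.45), WRKY60 after AvrRpm1 (-1.59) and AvrRps4 (-1.53), and WRKY75 after flg22 (-3.76).

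Averaged over the 3 treatments, 3 genes were lower in camta3-D by edgeR, beside 10.3% higher and 10.5% lower of all genes. DESeq2 called 4 lower, beside 22.7% of all genes in either direction. At an unadjusted p under 0.05, 4 were lower, beside 35.6% of all genes in either direction. None was higher by any of these. WRKY60 had a mean log2 fold change of -1.08 (SE 0.29, adjusted p = 0.0281, edgeR), WRKY18 of -0.56 (SE 0.17, adjusted p = 0.0414) and WRKY17 of -0.27 (SE 0.08, adjusted p = 0.0364). The average uses the libraries of the comparisons above and is not separate evidence. As single libraries were left out, the value ranged from -1.38 to -0.40 for WRKY60, from -0.72 to -0.45 for WRKY18 and from -0.32 to -0.23 for WRKY17. The WRKY60 value was -0.40 without flg22 wild-type replicate 2. None of these calls held in all such fits, each of which leaves 1 library in a group.

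The genotype effects were also compared between treatments. For flg22 against the mean of both Pst strains, edgeR and DESeq2 called 0 of the 10 genes. By edgeR, 0.167% of all genes were higher and 0.141% lower, and DESeq2 called 3.92% in either direction. At an unadjusted p under 0.05 there was 1 gene of the set, beside 16.2% of all genes. That gene was WRKY18, with a log2 fold change of 0.21 after flg22, -1.45 after AvrRpm1 and -0.45 after AvrRps4, a signed difference of 1.16 (SE 0.36, unadjusted p = 0.00914, adjusted p = 0.159, edgeR). For AvrRpm1 against AvrRps4, edgeR and DESeq2 again called 0 of the 10. By edgeR, 0.00522% of all genes were higher and 0.0157% lower, and DESeq2 called 3.51% in either direction. Here 2 genes had an unadjusted p under 0.05, beside 15.6% of all genes. They were WRKY18 (-1.01, SE 0.42, unadjusted p = 0.0374, adjusted p = 0.29, edgeR) and WRKY28 (2.41, SE 1.05, unadjusted p = 0.0457, adjusted p = 0.311, edgeR). None of the calls after 1 treatment is therefore shown to differ from the effect after another.

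The 2 Pst strains were compared within each genotype at the same time and dose. In camta3-D, edgeR called 2 genes, both of group IId, higher after AvrRpm1 than after AvrRps4, beside 10.5% higher and 12.4% lower of all genes. DESeq2 called 3 higher, WRKY17, WRKY7 and WRKY60, beside 26% of all genes in either direction. None was lower by edgeR or by DESeq2. WRKY60 had 4.51 and 4.82 CPM after AvrRpm1, against 2.33 and 2.31 CPM after AvrRps4. It did not pass by edgeR (log2 fold change 1.01, SE 0.37, adjusted p = 0.0767). At an unadjusted p under 0.05, 3 were higher and 1 lower, beside 36.7% of all genes in either direction. WRKY17 had 10.6 and 12.1 CPM after AvrRpm1, against 6.72 and 5.87 CPM after AvrRps4, and was 1.80-fold higher (log2 fold change 0.85, SE 0.14, adjusted p = 0.00357, edgeR), with every left-out library keeping the call. WRKY7 had 14.7 and 30.2 CPM after AvrRpm1, against 8.13 and 8.70 CPM after AvrRps4, and was 2.66-fold higher (1.41, SE 0.29, adjusted p = 0.00872, edgeR). The log2 fold change was 0.80 without AvrRpm1 replicate 2 and 1.84 without AvrRpm1 replicate 1. Its call was lost without AvrRps4 replicate 1 (adjusted p = 0.0581) or replicate 2 (adjusted p = 0.0526).

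In wild type, WRKY17 was the only gene called, with 13.3 and 13.1 CPM after AvrRpm1, against 9.21 and 8.40 CPM after AvrRps4 (log2 fold change 0.58, SE 0.14, adjusted p = 0.0471, edgeR). The call was lost with each of the 4 libraries left out (adjusted p 0.107 to 0.208). Over all genes, 1.58% were higher and 2.17% lower, and none of the set was lower by edgeR or by DESeq2. At an unadjusted p under 0.05, 3 were higher and 2 lower, beside 19.9% of all genes in either direction. WRKY7 had 20.1 and 16.4 CPM after AvrRpm1, against 10.2 and 9.09 CPM after AvrRps4 (0.92, SE 0.29, adjusted p = 0.112, edgeR). WRKY60 had 16.7 and 11.3 CPM after AvrRpm1, against 6.61 and 6.83 CPM after AvrRps4 (1.06, SE 0.33, adjusted p = 0.111, edgeR). DESeq2 called 3 genes in wild type, WRKY17, WRKY7 and WRKY60, and 7.81% of all genes in either direction.

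WRKY15, also of group IId, had 15.9 and 58.4 CPM after AvrRpm1 in camta3-D, against 54.0 and 54.3 CPM after AvrRps4, and 38.7 and 36.9 CPM in wild type after AvrRpm1, against 44.7 and 51 CPM after AvrRps4. WRKY11 had 20.7 and 32.6 CPM after AvrRpm1 in camta3-D, against 23.7 and 25.9 CPM after AvrRps4 (0.11, SE 0.22), and 34.6 and 28.1 CPM in wild type after AvrRpm1, against 25.6 and 27.9 CPM after AvrRps4 (0.23, SE 0.22). No difference between genes was tested. WRKY40 of group IIa had 5.32 and 26.6 CPM after AvrRpm1 in camta3-D, against 33.1 and 34.4 CPM after AvrRps4 (-1.08, SE 0.55, adjusted p = 0.188, edgeR), and 13.9 and 14.4 CPM in wild type after AvrRpm1, against 19.1 and 35.3 CPM after AvrRps4 (-0.94, SE 0.55, adjusted p = 0.389, edgeR).

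WRKY40 and WRKY15 followed each other across the Pst libraries although they belong to different groups. Both were lowest in AvrRpm1 camta3-D replicate 1 (5.32 and 15.9 CPM) and next lowest in the wild-type AvrRpm1 libraries (13.9 and 14.4 CPM for WRKY40, 38.7 and 36.9 CPM for WRKY15). No test was made of this likeness, which was noticed in the values.

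**Figure D5:**
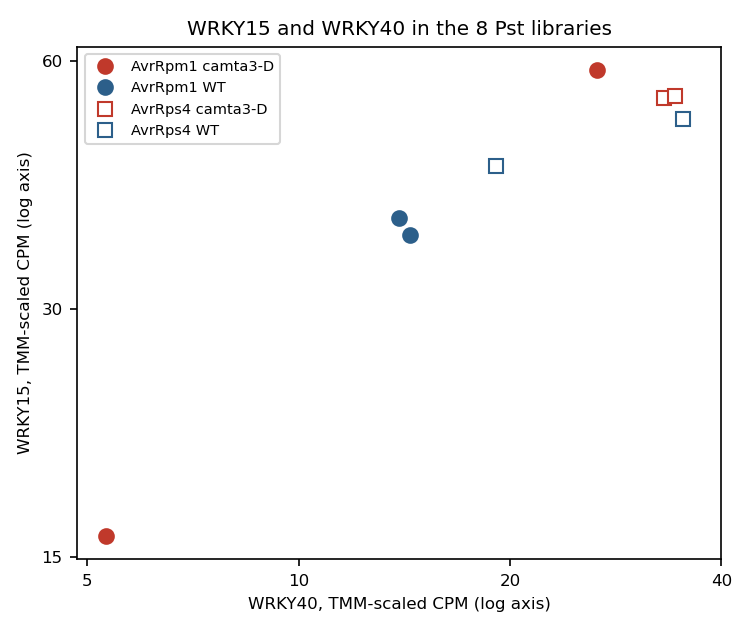
WRKY15 against WRKY40 in the 8 Pst libraries, both in TMM-scaled CPM on log axes, with filled circles for AvrRpm1, open squares for AvrRps4, red for camta3-D and blue for wild type. The 2 camta3-D libraries after AvrRpm1 lie at opposite ends of the WRKY15 axis, at 15.9 and 58.4 CPM, and at 5.32 and 26.6 CPM of WRKY40.

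The genes whose log2 CPM followed a member most closely over the 12 libraries were listed for the most abundant gene of each group. They were AT1G76970, RHA3B and AT1G03740 for WRKY18, BIK1, Tudor2 and AT5G11650 for WRKY48, and WAKL2, UGT71B6 and WRKY40 for WRKY15. Pearson's r was at least 0.991 in each case. The libraries fall into a flg22 and a Pst cluster, which by itself gives high r to any gene that differs between them.

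Other genes of the pathway are given from 2 lists. The lists were chosen with earlier results of these data known, so their counts beside the shares of all genes are a description and no evidence of enrichment. Of the 12 kinases, partners and reported targets, 11 were tested, and 4 were lower in camta3-D after flg22, 4 after AvrRpm1 and 0 after AvrRps4 by edgeR, with none higher, beside 5.59%, 3.41% and 2.44% lower of all genes. DESeq2 called 5 lower after flg22 and 6 after AvrRpm1, beside 13.7% and 7.83% of all genes in either direction. After AvrRps4, DESeq2 called 1 lower, beside 9.51% of all genes in either direction. At an unadjusted p under 0.05, 2 were then lower and 1 higher, beside 23.6% of all genes. The median log2 fold changes were -0.51, -0.86 and -0.21, beside 0.04, 0.01 and 0.00 over all genes. ICS1, which makes the salicylic acid precursor isochorismate, had 19.1 and 18.8 CPM in camta3-D after flg22, against 79.7 and 141 CPM in wild type (log2 fold change -2.54, SE 0.51, adjusted p = 0.0169, edgeR). SIB1, a VQ-motif protein that binds WRKY factors, had 7.28 and 4.76 CPM in camta3-D after flg22, against 22.3 and 51.3 CPM in wild type (-2.61, SE 0.54, adjusted p = 0.0179, edgeR). Its relative SIB2 was lower after flg22 (-1.13, SE 0.26, adjusted p = 0.0259) and after AvrRpm1 (-1.51, SE 0.23, adjusted p = 0.00799), and the kinase genes CPK5 (-0.86, SE 0.18, adjusted p = 0.0275) and CPK4 (-0.75, SE 0.17, adjusted p = 0.0392) after AvrRpm1. CPK4 was also lower after flg22 (-0.63, SE 0.17, adjusted p = 0.0401, edgeR) and SIB1 after AvrRpm1 (-2.58, SE 0.59, adjusted p = 0.0402, edgeR). The kinase genes CPK6 and CPK11 were not called between genotypes after any treatment.

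Of 18 other group IIc and IId genes, 10 were tested. After AvrRpm1, WRKY50 and WRKY51, group IIc factors of jasmonate and salicylic acid signalling, were lower in camta3-D and the other 8 were not called. WRKY50 had 0 and 0.0790 CPM in camta3-D, against 5.59 and 1.06 CPM in wild type, with an adjusted p of 0.0334 (edgeR). WRKY51 had no count in either camta3-D library, against 2.90 and 1.10 CPM in wild type, with an adjusted p of 0.0391 (edgeR). In camta3-D after any treatment, WRKY51 had at most 0.0404 CPM, and WRKY50 exceeded 0.104 CPM in only 1 library (0.647 CPM after AvrRps4). Both genes thus passed the count filter through wild-type libraries in which they were high, so the calls describe these values and support no more. No gene of this list was called after flg22 or AvrRps4 by edgeR, where the median log2 fold changes were -0.51 and -0.91. DESeq2 called 1 higher and 1 lower after flg22 and 2 lower after AvrRps4, beside 13.7% and 9.51% of all genes in either direction. At an unadjusted p under 0.05, 2 were higher and 1 lower after flg22, beside 28.2% of all genes. After AvrRps4, 4 were lower at that threshold, beside 23.6% of all genes.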

How the data were processed

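Counts analysed were the raw read counts per gene that the authors deposited for 12 polyadenylated RNA libraries. Per the labels and processing notes, FastQC (0.11.2) was run on the reads, TopHat2 (2.0.10) aligned them to TAIR10 and HTSeq counted them per gene, whose version and strand setting are not given in the sources used here. The table held 5 summary lines, left out of library sizes (reads without a feature were 2.16 to 2.95% of all counts in the table). Samples were grouped by the labels.

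Genes were filtered with filterByExpr (minimum count 10), which left 19167 tested and 13511 not tested. Counts were scaled by TMM (factors 0.797 to 1.17) and fitted with a mean per group in edgeR (4.0.16; R 4.3.3), by the quasi-likelihood test with 6 residual degrees of freedom, two-sided, and Benjamini-Hochberg adjustment over all genes. The common biological coefficient of variation was 0.15. The fit was tested on simulated data. A prior count of 2 was used for log2 CPM. Alternatives were median-ratio size factors, DESeq2 (1.42.0), no filter, a replicate block, only the libraries compared, an adjusted p under 0.01 with a change over 2-fold, and each library left out in turn. Exon lengths and promoters came from the RefSeq annotation of TAIR10.1, motifs were searched on both strands, and TTGACC and TTGACT contain TTGAC. Genes were named by membership of the set, the 3 most alike genes for the most abundant gene of each group, and at most 3 called genes with the smallest p per list and comparison. For genes so named and for the kinase genes, other comparisons are given in places. The members and lists were chosen with earlier results of these data known.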

Additional observations from a re-analysis of the deposited data

How the results depend on the processing

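Of the 1220 recomputed values for single genes, 1149 stayed on the same side of the threshold, 58 fell short of it, 12 newly passed it and 1 reversed. This was WRKY15 after AvrRpm1, at -0.03 with both libraries, 0.63 when camta3-D replicate 1 was left out and -1.25 when replicate 2 was. A change of sign with neither value called was not counted as reversed, and it occurred in 54 of the 1220. Between genotypes, WRKY75 after AvrRpm1 went from 0.44 to -4.68 when camta3-D replicate 2 was left out. WRKY60 after flg22 went from -0.13 to 1.91 when wild-type replicate 2 was left out. The increases called after flg22 against Pst, and the decrease of WRKY60 there, were called in all alternatives run. An adjusted p under 0.01 with a change over 2-fold left 0 genes called between genotypes after flg22, AvrRpm1, AvrRps4 or on average, 0 between strains in wild type and 1 in camta3-D. Few genes of any kind pass that threshold. After flg22 it called 1.13% of all genes between genotypes, against 10.8% at an adjusted p under 0.05. With only the libraries compared, 0 genes were called between genotypes after AvrRpm1 and 0 between strains in wild type, where DESeq2 called 3. As single libraries were left out, the number of genes called between genotypes was 0 after flg22, 0 to 2 after AvrRpm1, 0 after AvrRps4 and 0 to 6 on average; between strains it was 1 to 4 in camta3-D and 0 in wild type; for flg22 against Pst it was 9 to 10 in camta3-D and 10 in wild type.

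Libraries with the same replicate number did not deviate together (correlations -0.18 to 0.10 between groups). Weak correlations cannot show whether the numbers pair the samples by experiment, which is not given in the sources used here. With the replicate block, 1 gene was called between genotypes after AvrRpm1, 0 after AvrRps4 and 0 between strains in wild type; the calls lost were WRKY60 after both strains (adjusted p = 0.0512 and 0.0667, edgeR) and WRKY17 (0.062). The depth of 22769687 to 26303024 counts limits WRKY75, which had at most 16 counts outside the wild-type flg22 libraries, and WRKY60 after flg22. With 2 libraries a group, the p-values rest on a spread shared across groups and genes.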
